A study of Mus musculus with 6 samples.

Results

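The CC chemokines are small secreted proteins, named for a pair of adjacent cysteines, that draw leukocytes along a gradient by binding G protein-coupled CC receptors. Macrophages that sense microbial lipopeptides through Toll-like receptor 2 switch many of these genes on. The CCR2 ligands mainly attract monocytes, a further set, among them ligands of CCR1, attracts monocytes, macrophages and T cells, and the CCR4 ligands attract T helper 2 and regulatory T cells. The genes described here are the 10 CC chemokine genes Ccl2, Ccl3, Ccl4, Ccl5, Ccl6, Ccl7, Ccl9, Ccl12, Ccl17 and Ccl22, taken by symbol from the deposited gene tables, which list 17951 genes in at least 1 library. All 10 were found.

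RNA-seq was done on BMDMs, macrophages differentiated from mouse bone marrow. The marrow came from 8-week-old wild-type C57BL/6 mice and was cultured for 4 to 6 days in DMEM with 10% FBS and 10% L929 conditioned medium, which supplies macrophage growth factor. In 3 libraries (Pam3CSK4 plus DA) the cells received dopamine (DA), a catecholamine neurotransmitter, for 2 h and then Pam3CSK4 for 6 h, and in 3 libraries (Pam3CSK4) they received Pam3CSK4 for 6 h without DA. Pam3CSK4, a lipopeptide made to mimic bacterial lipoproteins, is sensed by Toll-like receptor 2 paired with Toll-like receptor 1, and both groups received it. The single comparison therefore asks how chemokine transcripts of stimulated macrophages differ with DA, and no unstimulated cells and no cells with DA alone were analysed here. The labels do not say whether the 3 libraries of a group came from separate mice or cultures, so the p-values measure only the spread between these libraries, which may be technical.

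Each library held 21337932 to 21518425 expected counts, the authors' estimated reads per gene. The macrophage markers Lyz2, Cd14, Csf1r and Cd68 were abundant in all 6 libraries. Of the 10 macrophage markers 7 fell with DA and 1, Fcgr1, rose. Their summed level was 22389 to 22755 counts per 1e+06 (CPM) in the 3 Pam3CSK4 plus DA libraries and 29382 to 29432 CPM in the 3 Pam3CSK4 libraries. Lyz2 made up most of that level, at 13042 CPM with DA and 17924 CPM without it. Adgre1 averaged 878 CPM with DA and 2095 CPM without it. Fcgr1 averaged 386 CPM with DA and 143 CPM without it. Mertk was scarcer, at 7.88 CPM with DA and 15.0 CPM without it. Of the 10 dendritic cell markers 2 fell and 1, Xcr1, rose, and the list summed to 77.3 to 88.9 CPM with DA and 142 to 156 CPM without it, most of it Itgax, which macrophages also express. The defining genes Flt3, Zbtb46, Cd209a and Clec9a were under 1 CPM in every library, while Xcr1 averaged 3.17 CPM with DA and 1.45 CPM without it. Of the 10 neutrophil markers 2 fell and 2 rose, and the list summed to 582 to 606 CPM with DA and 222 to 275 CPM without it. S100a8 averaged 406 CPM with DA and 63.5 CPM without it, S100a9 99.8 CPM with DA and 93.2 CPM without it, and Ngp 61.3 CPM with DA and 68.1 CPM without it. Camp, Ltf, Mpo and Cxcr2 were above 1 CPM in every library, and Ly6g and Retnlg were under 1 CPM. Of the 10 T and NK cell markers 2 fell, and the list summed to 16.2 to 19.8 CPM with DA and 19.1 to 21.1 CPM without it, with Cd3g, Trac and Gzma listed in no library. Of the 8 B cell markers 1 fell, and the list summed to 0.909 to 1.12 CPM with DA and 2.44 to 2.93 CPM without it, with Pax5, Ighm and Iglc2 listed in no library. Of the 8 mast cell and basophil markers 1 fell and 1 rose, and the list summed to 1.36 to 1.64 CPM with DA and 1.83 to 2.29 CPM without it, with Cpa3, Fcer1a and Tpsb2 listed in no library. Of the 8 stromal markers 4 fell, and the list summed to 825 to 901 CPM with DA and 961 to 1014 CPM without it. Most of that was Col1a1, at 491 CPM with DA and 530 CPM without it, and Col1a2, at 306 and 350 CPM. Marker transcripts in bulk libraries do not count cells, and whether their differences bear on the chemokine values was not tested.

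The CC chemokine transcripts were lower with DA in all 3 of these sets. Together the 10 genes took 0.404%, 0.453% and 0.376% of all counts in the Pam3CSK4 plus DA libraries, against 1.25%, 1.21% and 1.26% in the Pam3CSK4 libraries. Their summed level was 2905 ± 194 FPKM with DA and 10190 ± 385 FPKM without it (SD, n = 3 each), where FPKM, fragments per kilobase of transcript per 1e+06 fragments, is the scale on which levels of different genes can be compared. Among the genes with enough counts to be tested, Ccl12, Ccl22, Ccl3 and Ccl4 fell furthest and Ccl6 fell least. In bulk libraries of this kind, fewer cells that make a transcript and less of it per cell cannot be told apart.

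Of the 10 genes, 9 passed the filter on low counts, each with at least 70 counts in every library, and Ccl17 did not. All 9 fell with DA at a threshold of 0.05 in edgeR's quasi-likelihood test, with p-values adjusted by the Benjamini-Hochberg method over 12390 genes. In the same test 64.4% of all genes were called in either direction, 31.8% lower and 32.6% higher. The fall was at least 2-fold in 8 of the 9, against 7.48% of all genes tested, and at least 4-fold in 4 of the 9, against 1.76%. In all 9 the highest Pam3CSK4 plus DA library lay below the lowest Pam3CSK4 library, as it did for 34% of all genes tested. The median log2 fold change, Pam3CSK4 plus DA over Pam3CSK4, was -1.81 over the 9 genes and 0.02 over all genes tested.

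**Figure D1:**
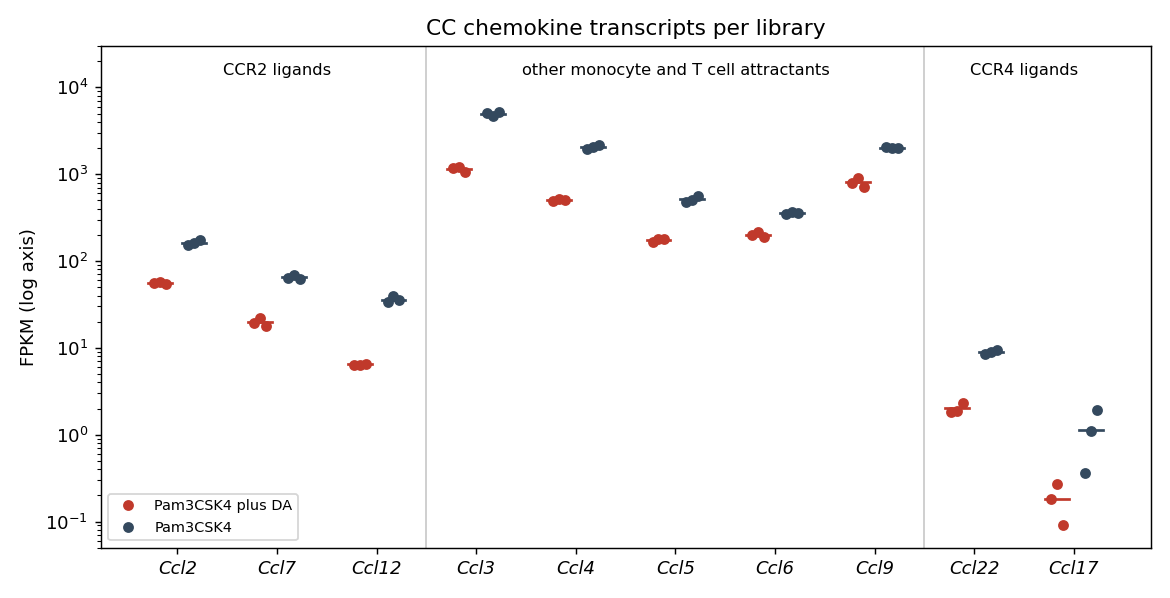
Level of each of the 10 CC chemokine genes in each library, in FPKM on a log axis, with the Pam3CSK4 plus DA libraries in red at the left of each pair and the Pam3CSK4 libraries in dark blue at the right. Points are libraries and short lines are group means over 3 libraries, and in every gene all red points lie below all blue points, from Ccl3 at 1059 to 1198 FPKM with DA and 4635 to 5249 FPKM without it down to Ccl17 at 0.09 to 0.27 FPKM and 0.36 to 1.91 FPKM.

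Promoter windows of 250 bases before and 50 bases after the annotated start are given for Ccl3, Ccl6, Ccl9, Ccl12, Ccl17 and Ccl22 in RefSeq's table for GRCm38.p6. The other members are Ccl2, Ccl4, Ccl5 and Ccl7. Positions within a window are counted from RefSeq's start, which is the GENCODE start behind the gene coordinates for Ccl6, Ccl9, Ccl12 and Ccl17, and lies 23 bases upstream of it for Ccl3 and 94 bases downstream of it for Ccl22. The windows of the tested genes that fell most and least are printed beside the values of their genes. So are those of the members that hold an NF-kB pattern. The wide NF-kB pattern searched, on both strands, was GGG and CC set apart by any 5 bases, and 50.4% of 27025 promoter windows of the same length held it, as did 2 of the 6 member windows. A narrow form contained in it, GGG, any 2 bases and TTTCC, was in 1.62% of all windows and in 1 of the 6. The AP-1 pattern TGANTCA was in 7.93% of all windows and 1 of the 6, and the C/EBP pattern TTNNGNAAT in 11.6% and 1 of the 6. The cAMP response element TGACGTCA, found in 1.88% of all windows, and an interferon response pattern, GAAA repeated after any 2 bases and found in 3.49%, were in 0 of the 6. A match describes letters in these windows and is not evidence of binding, and a missing match says nothing about a factor.

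The 3 CCR2 ligands lie together on chromosome 11, and all 3 fell 3-fold or more with DA. Ccl2, the main monocyte attractant of the family (chromosome 11, 82035571 to 82037453, plus strand, GRCm38), was at 55.4, 56.9 and 53.7 FPKM in the Pam3CSK4 plus DA libraries and 153, 162 and 172 FPKM in the Pam3CSK4 libraries. The groups were far apart, and the 3 DA libraries differed by less from each other than the 3 Pam3CSK4 libraries did. By edgeR's quasi-likelihood test the log2 fold change was -1.64 (SE 0.0625, adjusted p = 2.55e-11), a 3.13-fold fall.

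Ccl7, which recruits monocytes through CCR2 beside Ccl2 (chromosome 11, 82045712 to 82047525, plus strand), was at 19.3, 21.9 and 17.6 FPKM with DA and 63.7, 68.9 and 61.6 FPKM without it. Replicate 2 was the highest library in both groups, and the groups did not overlap. Ccl7 fell 3.51-fold (log2 fold change -1.81, SE 0.0782, edgeR quasi-likelihood adjusted p = 9.12e-11).

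Ccl12, a CCR2 ligand of mouse monocytes (chromosome 11, 82101845 to 82103400, plus strand), had the steepest fall of the 9 tested genes. It was at 6.42, 6.41 and 6.55 FPKM with DA, nearly the same in all 3 libraries, and at 33.5, 39.2 and 35.2 FPKM without it. The fall was 5.91-fold (log2 fold change -2.56, SE 0.103, edgeR quasi-likelihood adjusted p = 4.46e-11). It was the scarcest of the 3 CCR2 ligands in FPKM in both groups, and its values rest on 70 to 72 counts per library with DA and 364 to 427 without it. Its promoter window, on the plus strand at chr11:82101595-82101894, holds none of the patterns searched. It is shown, 5′ to 3′ and with no capitals, as that of the tested gene with the largest fall.
Ccl12: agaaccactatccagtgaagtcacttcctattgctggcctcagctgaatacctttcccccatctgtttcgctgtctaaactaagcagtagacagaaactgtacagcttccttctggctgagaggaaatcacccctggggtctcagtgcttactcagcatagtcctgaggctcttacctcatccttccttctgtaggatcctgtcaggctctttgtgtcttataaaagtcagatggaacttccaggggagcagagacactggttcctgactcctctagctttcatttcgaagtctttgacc

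The 5 other monocyte and T cell attractants, Ccl3, Ccl4, Ccl5, Ccl9 and Ccl6, carried most of the CC chemokine transcript in both groups, and their falls ranged from 1.89-fold to 4.63-fold. Ccl3, a CCR1 ligand (chromosome 11, 83647844 to 83649355, minus strand), was the most abundant of the 10 genes, at 1166, 1198 and 1059 FPKM with DA and 5015, 4635 and 5249 FPKM without it. Among all genes ranked by mean FPKM it stood at place 51 with DA and at place 7 without it. The groups were separated by a wide gap, and Ccl3 fell 4.63-fold (log2 fold change -2.21, SE 0.0624, edgeR quasi-likelihood adjusted p = 1.38e-12). Its promoter window held the C/EBP pattern at bases -100 to -92, counted from 0 at the first transcribed base.

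Ccl4, which attracts T cells and monocytes (chromosome 11, 83662584 to 83664683, plus strand), was at 486, 515 and 498 FPKM with DA and 1957, 2039.5 and 2164 FPKM without it. It stood at place 176 of all genes with DA and at place 17 without it. The coefficient of variation of the DA libraries was 2.93%, and the groups did not overlap. Its log2 fold change by edgeR's quasi-likelihood test was -2.13 (SE 0.0564, adjusted p = 9.71e-13), the smallest adjusted p of the CC chemokine genes tested.

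Ccl5, a ligand of CCR1 and CCR3 that recruits T cells, monocytes and eosinophils (chromosome 11, 83525778 to 83530518, minus strand), was at 167, 178 and 182 FPKM with DA and 482, 498 and 568 FPKM without it. Replicate 3 was highest in both groups, and the lowest Pam3CSK4 library stood well above every DA library. Ccl5 fell 3.13-fold (log2 fold change -1.64, SE 0.0705, edgeR quasi-likelihood adjusted p = 8.48e-11), close in size to Ccl2.

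Ccl9, a CCR1 ligand of rodent macrophages (chromosome 11, 83572919 to 83578636, minus strand), was at 782, 915 and 715 FPKM with DA and 2077, 2011 and 1982 FPKM without it. The DA libraries were uneven, with replicate 2 highest and a coefficient of variation of 12.7%, against 2.39% in the Pam3CSK4 libraries. The fall of 2.68-fold exceeded that spread (log2 fold change -1.42, SE 0.0702, edgeR quasi-likelihood adjusted p = 3.78e-10). Alone among the 10 genes, Ccl9 had expected counts that were not whole numbers, and its transcript shared 50-base stretches with other genes, in 59 of its 2957 windows of that length. The authors' counting could have split a part of its reads with those genes, and its level is uncertain to that extent.

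Ccl6, another CCR1 ligand of rodent macrophages (chromosome 11, 83587882 to 83593087, minus strand), had the smallest fall of the 9. It was at 198, 215 and 189.8 FPKM with DA and 347, 369.7 and 354 FPKM without it, and replicate 2 was again highest in both groups. The groups did not overlap, and the difference was 1.89-fold (log2 fold change -0.92, SE 0.0553, edgeR quasi-likelihood adjusted p = 3.14e-09), the only fall of the 9 below 2-fold.

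Ccl6 and Ccl9 are neighbours on the minus strand and fell least of the 9 genes, and their promoter windows were the most alike of the 15 pairs among the 6 windows. The best local alignment of Ccl6 and Ccl9 had 58 identical bases in 74 columns (78.4%) with 7 gap columns, and the next pair, Ccl3 and Ccl12, had 20 identical in 26 columns. Both windows are printed 5′ to 3′ on the minus strand, Ccl6 from chr11:83593038-83593337 and Ccl9 from chr11:83578587-83578886. Capitals mark the NF-kB pattern, which Ccl9 holds on the opposite strand at bases -35 to -26 in the narrow form and which Ccl6 lacks. Ccl9 also holds the AP-1 pattern at bases -53 to -47, in lower case here.
Ccl6: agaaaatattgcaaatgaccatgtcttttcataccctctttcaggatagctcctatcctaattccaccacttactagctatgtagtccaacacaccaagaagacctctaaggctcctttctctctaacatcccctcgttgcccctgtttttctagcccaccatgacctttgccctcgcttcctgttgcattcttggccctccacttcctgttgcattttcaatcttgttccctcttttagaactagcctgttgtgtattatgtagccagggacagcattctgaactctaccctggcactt
Ccl9: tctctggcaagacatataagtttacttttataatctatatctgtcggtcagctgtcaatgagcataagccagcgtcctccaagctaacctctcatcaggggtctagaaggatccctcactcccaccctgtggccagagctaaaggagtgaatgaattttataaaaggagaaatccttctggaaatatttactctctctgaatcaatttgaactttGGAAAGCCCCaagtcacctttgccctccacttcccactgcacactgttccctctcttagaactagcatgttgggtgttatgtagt

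The aligned stretches are given again on their own, with capitals marking the bases that differ or that have no partner in the other gene. They cover bases -59 to 14 of Ccl6 and bases -18 to 48 of Ccl9, so the shared stretch lies mostly before the start of Ccl6 and mostly after the start of Ccl9.
Ccl6 stretch: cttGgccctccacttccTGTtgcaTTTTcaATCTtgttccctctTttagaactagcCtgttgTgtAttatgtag
Ccl9 stretch: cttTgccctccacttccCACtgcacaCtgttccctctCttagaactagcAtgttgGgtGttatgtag

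The CCR4 ligands were the scarcest of the 10 genes in both groups. Ccl22, which attracts T helper 2 and regulatory T cells (chromosome 8, 94745590 to 94751699, plus strand), was at 1.81, 1.88 and 2.33 FPKM with DA and 8.43, 9.03 and 9.47 FPKM without it. The groups did not overlap, and the DA libraries, at 70 to 91 counts each, were the most variable of the 9 tested genes with a coefficient of variation of 14.1%. Ccl22 fell 4.75-fold (log2 fold change -2.25, SE 0.112, edgeR quasi-likelihood adjusted p = 3.93e-10). Its promoter window, on the plus strand at chr8:94745434-94745733, is shown because it holds the wide NF-kB pattern at 2 places, bases -162 to -153 and -131 to -122, each on the opposite strand and in capitals.
Ccl22: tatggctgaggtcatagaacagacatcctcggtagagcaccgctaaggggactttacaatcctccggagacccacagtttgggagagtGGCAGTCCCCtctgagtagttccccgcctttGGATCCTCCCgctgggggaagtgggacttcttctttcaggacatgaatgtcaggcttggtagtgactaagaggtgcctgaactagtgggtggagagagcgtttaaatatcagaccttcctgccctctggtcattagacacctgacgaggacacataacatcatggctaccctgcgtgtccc

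Ccl17, the other CCR4 ligand (chromosome 8, 94810453 to 94812036, plus strand), had 2, 3 and 1 counts in the Pam3CSK4 plus DA libraries and 4, 12 and 21 counts in the Pam3CSK4 libraries. In FPKM these were 0.18, 0.27 and 0.09 with DA and 0.36, 1.09 and 1.91 without it. All 3 DA libraries lay below all 3 Pam3CSK4 libraries, which differed widely among themselves. Ccl17 failed the filter on low counts and was not tested with the others. In edgeR's quasi-likelihood test without that filter its log2 fold change was -2.67 (adjusted p = 0.00523), and in DESeq2's Wald test it was -2.74 (adjusted p = 0.00562). In limma on unfiltered log2(FPKM + 1) it was -0.78 and was not called (adjusted p = 0.051).

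The spread between libraries did not run the same way in all members. Over the 9 tested genes the coefficient of variation of FPKM was 1.21% to 14.1% in the Pam3CSK4 plus DA libraries and 2.39% to 8.87% in the Pam3CSK4 libraries. Ccl12, Ccl2 and Ccl4 were the most even genes with DA, whereas Ccl9 and Ccl6 were the most even without it. With DA, replicate 2 was the highest library for Ccl2, Ccl3, Ccl4, Ccl6, Ccl7 and Ccl9, and replicate 3 for Ccl5, Ccl12 and Ccl22.

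The order of the genes by FPKM was almost the same in both groups. With DA it ran Ccl3, Ccl9, Ccl4, Ccl6, Ccl5, Ccl2, Ccl7, Ccl12, Ccl22 and Ccl17, and no neighbours in that order overlapped. Without DA it ran Ccl3, Ccl4, Ccl9, Ccl5, Ccl6, Ccl2, Ccl7, Ccl12, Ccl22 and Ccl17, with Ccl4 and Ccl9 overlapping and all other neighbours apart. Ccl9 therefore stood above Ccl4 in every DA library and level with it in the Pam3CSK4 libraries. Ccl6 stood above Ccl5 in the DA libraries and below it in the Pam3CSK4 libraries.

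The make-up of the summed FPKM differed accordingly, given here as a description with no test. Ccl3 made up 39.3% ± 1.03 of it with DA and 48.7% ± 1.37 without it (SD, n = 3 each). Ccl4 made up 17.2% ± 0.922 with DA and 20.2% ± 0.751 without it. Ccl12 had the smaller share with DA too, at 0.223% ± 0.0172 against 0.353% ± 0.0388 without it. The shares of the genes that fell less were higher with DA. Ccl9 held 27.6% ± 1.65 with DA and 19.9% ± 1.02 without it, and Ccl6 held 6.92% ± 0.0492 with DA and 3.51% ± 0.221 without it. Ccl5 held 6.06% ± 0.523 with DA and 5.06% ± 0.302 without it, and Ccl2 held 1.91% ± 0.0728 with DA and 1.60% ± 0.0749 without it. These 7 shares did not overlap between the groups, while those of Ccl7, Ccl17 and Ccl22 did. In shares of expected counts, Ccl2 and Ccl5 overlapped and Ccl7 and Ccl22 did not.

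**Figure D2:**
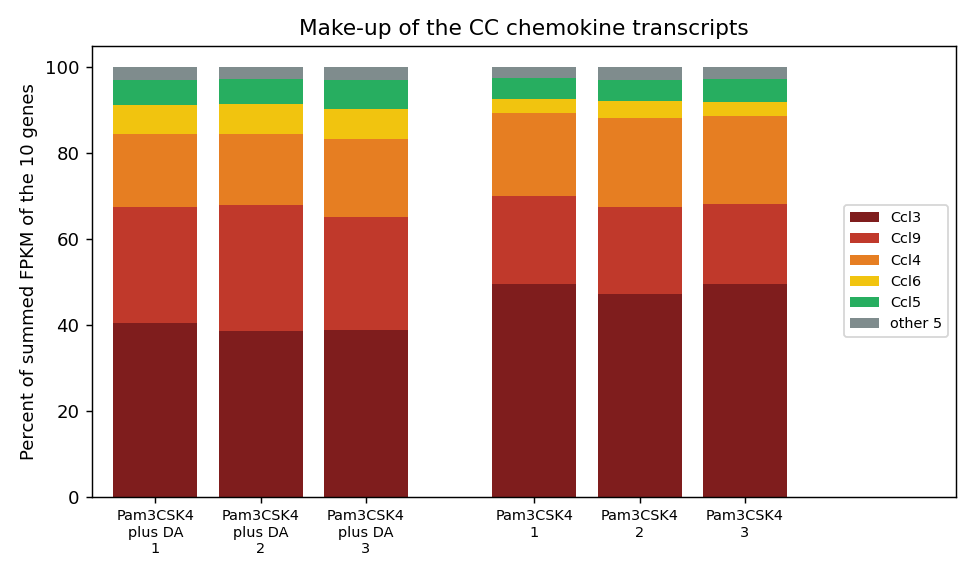
Share of each gene in the summed FPKM of the 10 CC chemokine genes, in percent, as 1 stacked bar per library with the 3 Pam3CSK4 plus DA libraries at the left and the 3 Pam3CSK4 libraries at the right. Colours mark Ccl3, Ccl9, Ccl4, Ccl6, Ccl5 and the sum of the other 5 genes, and the Ccl3 share averages 39.3% in the DA bars and 48.7% in the Pam3CSK4 bars, while the Ccl6 share averages 6.92% and 3.51%.

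Ratios between members, within a library, showed the same unevenness. They were picked after the values had been seen and are given as a description. An exact permutation test was run on them. With 3 libraries against 3 its p-value cannot fall below 0.1, so it cannot decide whether they differ. The ratio of Ccl12 to Ccl2 in FPKM was 0.116, 0.113 and 0.122 with DA and 0.218, 0.241 and 0.204 without it. The ratio of Ccl3 to Ccl9 was 1.49, 1.31 and 1.48 with DA and 2.41, 2.30 and 2.65 without it. Both ratios were lower in every DA library than in any Pam3CSK4 library. The ratio of Ccl5 to Ccl4 was 0.343, 0.346 and 0.364 with DA and 0.246, 0.244 and 0.263 without it, and that of Ccl6 to Ccl9 was 0.253, 0.235 and 0.266 with DA and 0.167, 0.184 and 0.179 without it. These 2 ratios were higher in every DA library. The ratio of Ccl3 to Ccl4 averaged 2.28 ± 0.142 with DA and 2.42 ± 0.145 without it, and that of Ccl7 to Ccl2 averaged 0.354 ± 0.0292 with DA and 0.399 ± 0.0364 without it (SD, n = 3 each), and both overlapped between the groups.

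The 10 genes sit in 3 chromosome clusters. On chromosome 11, Ccl2, Ccl7 and Ccl12 span 67.8 kb in GRCm38, with Ccl11, an eosinophil attractant, between Ccl7 and Ccl12. Ccl11 had at most 1 count in every library. The antisense gene Gm17268, which overlaps Ccl2, and Asic2, the nearest coding gene on its other side, were listed in no library. The next gene beyond Ccl12 is Ccl8, another CC chemokine, which lay in the opposite direction: it had 31, 64 and 36 counts with DA and 22, 26 and 28 counts without it. Its log2 fold change by edgeR's quasi-likelihood test was 0.69 (SE 0.273, adjusted p = 0.0398). Without DA replicate 2 its log2 fold change was 0.31 and the call was lost (edgeR adjusted p = 0.285). It was also lost without Pam3CSK4 replicate 1 (0.59, edgeR adjusted p = 0.113), without Pam3CSK4 replicate 2 (0.70, edgeR adjusted p = 0.0749), in DESeq2's Wald test (0.67, adjusted p = 0.111) and without filters on low values.

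Farther along chromosome 11, Ccl5, Ccl9, Ccl6, Ccl3 and Ccl4 span 138.9 kb. The gene E230016K23Rik, a processed transcript on the opposite strand, overlaps Ccl6 and was not called (log2 fold change -0.39, edgeR quasi-likelihood adjusted p = 0.153). Whether the counting used strand is not stated. Ccl6 had 5833 to 11274 counts per library and E230016K23Rik had 23.7 to 45.7. The copy Rpl9-ps1, between Ccl6 and Ccl3, was listed in no library. Beyond Ccl4 lies Wfdc17, a secreted whey acidic protein family member of macrophages, which fell 1.83-fold (log2 fold change -0.87, SE 0.0747, edgeR quasi-likelihood adjusted p = 1.46e-07). Heatr9, on the other side beyond Ccl5, was too low to be tested at 4 to 8 counts per library.

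On chromosome 8, Ccl22 and Ccl17 span 66.4 kb with Cx3cl1 between them. Cx3cl1, the membrane-anchored ligand of CX3CR1, had 69, 58 and 66 counts with DA and 248, 250 and 273 counts without it. It fell 4.26-fold (log2 fold change -2.09, SE 0.111, edgeR quasi-likelihood adjusted p = 8.17e-10), next to 4.75-fold for Ccl22. Ciapin1, an iron-sulfur protein gene beyond Ccl17, had a log2 fold change of 0.12 and was not called (edgeR quasi-likelihood adjusted p = 0.158), but it was called with upper-quartile factors (0.24, edgeR adjusted p = 0.0137) and in limma on filtered FPKM (0.19, adjusted p = 0.0331). Pllp, beyond Ccl22, had at most 1 count per library, and the pseudogene Gnb1-ps3 was listed in none.

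**Figure D3:**
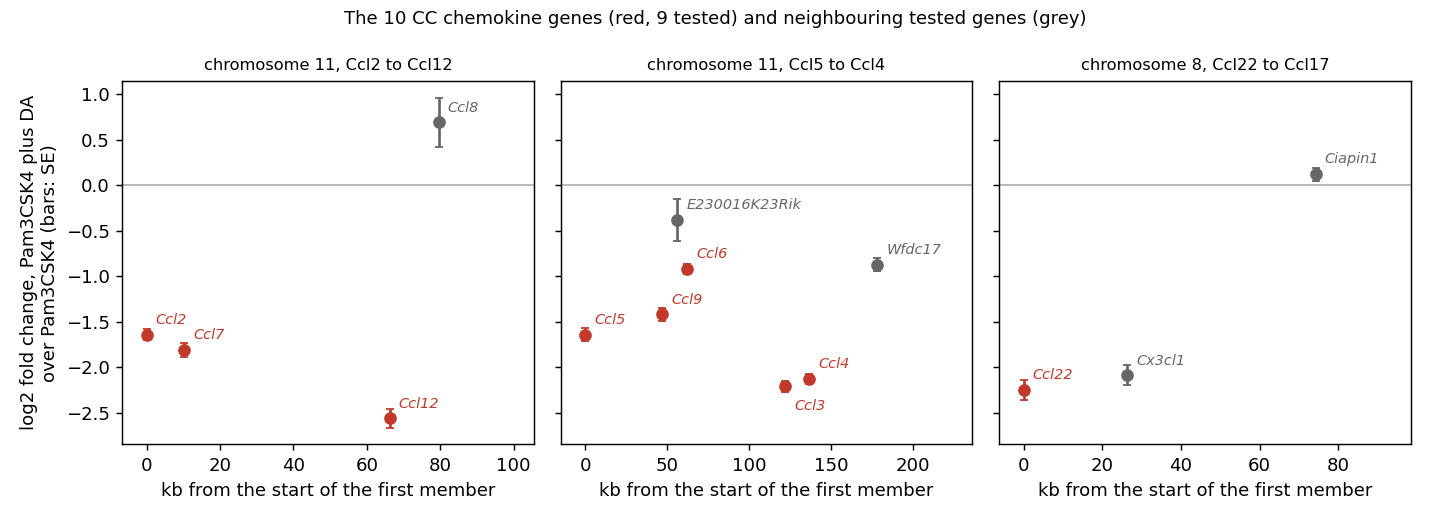
Log2 fold change (Pam3CSK4 plus DA over Pam3CSK4, edgeR) against distance in kb from the start of the first CC chemokine gene of each of the 3 chromosome clusters, with CC chemokine genes of the set in red, other tested genes in grey and bars of 1 standard error. The red points lie between -2.56 and -0.92, Cx3cl1 lies at -2.09 beside Ccl22, and Ccl8 lies at 0.69 beyond Ccl12.

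The fall was shared by part of the rest of the chemokine family. Of 14 other CC ligands 10 were listed and 5 were tested, of which 3 were lower, 1 higher and 1 not called. Ccl19, a CCR7 ligand, fell on very few counts, 2, 4 and 2 with DA and 19, 17 and 11 without it (log2 fold change -2.59, edgeR quasi-likelihood adjusted p = 0.00013). Ccl20, the CCR6 ligand, fell 2.15-fold (log2 fold change -1.10, SE 0.177, edgeR quasi-likelihood adjusted p = 8.32e-05). Ccl24, at -0.64 with overlapping groups, lost its call in 9 of the 15 alternative analyses that tested it, among them those without DA replicate 1 (-0.44) or 3 (-0.55) and without Pam3CSK4 replicate 2 (-0.50) or 3 (-0.63). Ccl25 had a log2 fold change of 0.42 and was not called (edgeR quasi-likelihood adjusted p = 0.197). The median of the 5 was -0.64, beside -1.81 for the 9 tested members.

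The CXC, CX3C and XC ligands went in both directions. Of 17 such genes 13 were tested, 7 were lower, 4 higher and 2 not called, and the 13 had a median of -0.29 on the log2 scale. The interferon-inducible T cell attractant Cxcl10 was lowest at -2.76, and the neutrophil attractants Cxcl2 and Cxcl1 fell by 1.35 and 1.06 on the log2 scale. Cxcl9 fell by 1.39 and Cxcl16 by 0.29. Cxcl12 was called at -0.34 but not with upper-quartile factors, in DESeq2's Wald test or in limma on unfiltered FPKM. Cxcl5, at 1.36, Pf4 and Ppbp, both at 0.54, and Cxcl3, at 0.44, rose with DA. Cxcl11 and Cxcl14 were not called.

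**Figure D4:**
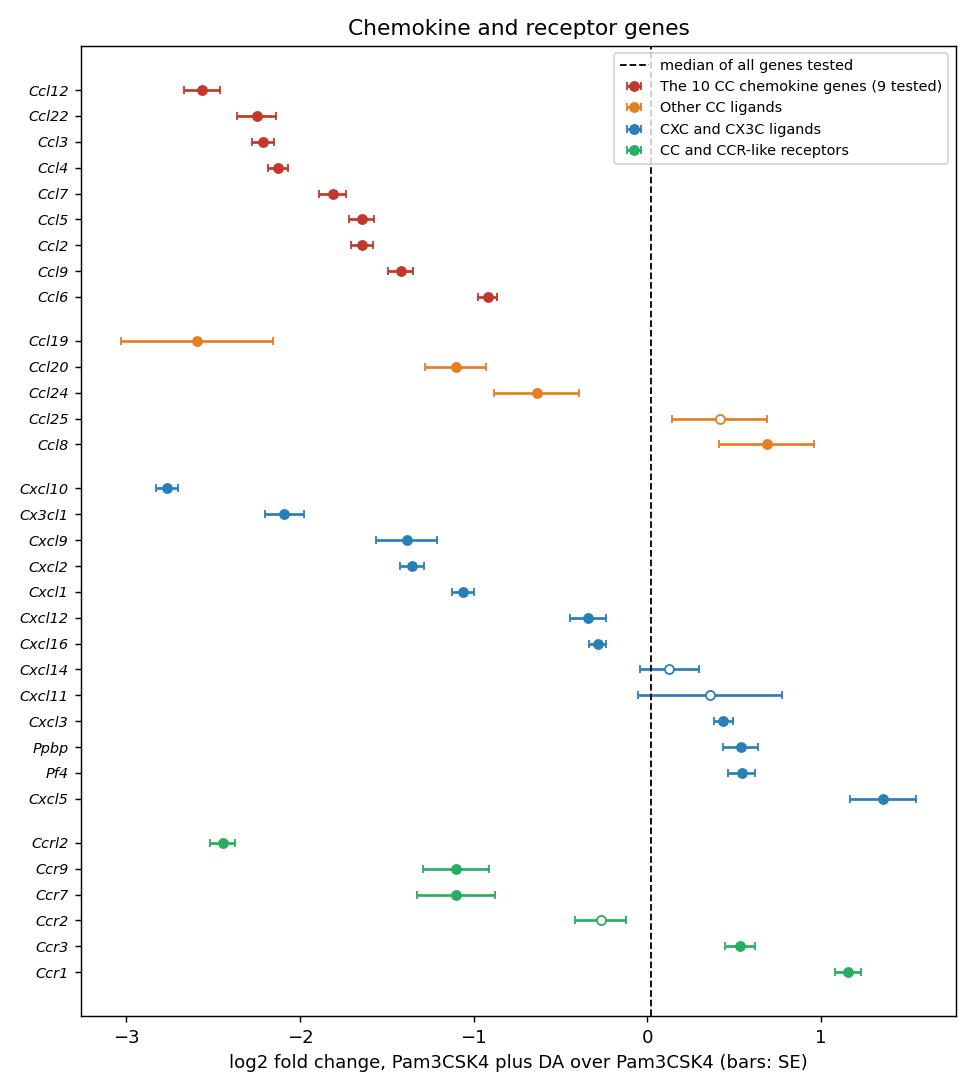
Log2 fold change (Pam3CSK4 plus DA over Pam3CSK4, edgeR) of the 9 tested CC chemokine genes of the set, of other CC ligands, of CXC and CX3C ligands and of receptors, sorted within each block, with bars of 1 standard error. Filled points passed an adjusted p of 0.05, open points did not, and the dashed line is the median of all genes tested at 0.02. The 9 genes lie at -0.92 or below, whereas each of the other blocks has points on both sides of the line.

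The receptor genes examined did not all move one way. Ccr1, the receptor of Ccl3, Ccl5, Ccl6 and Ccl9, was at 132, 137 and 121 CPM with DA and 54.8, 65.8 and 54.6 CPM without it. It rose 2.23-fold with groups that did not overlap (log2 fold change 1.16, SE 0.0755, edgeR quasi-likelihood adjusted p = 7.65e-09). Ccr2, the receptor of Ccl2, Ccl7 and Ccl12, was at 3.54, 5.22 and 3.91 CPM with DA and 5.00, 5.44 and 4.83 CPM without it. It was not called (log2 fold change -0.27, SE 0.146, edgeR quasi-likelihood adjusted p = 0.123), but without DA replicate 2 the fold change was -0.46 and passed (edgeR adjusted p = 0.0108). The expected counts of Ccr2 were not whole numbers.

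Of 9 CC receptors 5 were tested, 2 rose, 2 fell and Ccr2 was not called. Ccr3, an eosinophil receptor that Ccl5 and Ccl7 also bind, rose by 0.53 on the log2 scale, and Ccr7 and Ccr9 each fell by 1.10. Both that fell were scarce. Ccr7 averaged 1.03 CPM with DA and 2.21 CPM without it, and Ccr9 1.86 CPM with DA and 3.99 CPM without it. The expected counts of Ccr3 and Ccr9 were not all whole numbers. Ccr4, the receptor of Ccl17 and Ccl22, was too low to be tested, at 0.272 ± 0.0456 CPM with DA and 0.453 ± 0.334 CPM without it (SD, n = 3 each). Among 6 atypical and CCR-like receptors only Ccrl2, a chemerin-binding receptor that does not signal, was tested. Ccrl2 fell 5.45-fold, at 27.3 ± 2.08 CPM with DA and 149 ± 9.91 CPM without it (SD, n = 3 each, log2 fold change -2.45, edgeR quasi-likelihood adjusted p = 2.04e-12).

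The genes whose pattern over the 6 libraries was most like the most abundant member of each of the 3 sets were sought among 8688 tested genes whose mean was 5 CPM or more. Likeness is the root mean square difference of log2 CPM deviations from the gene's own mean, so that 0 is the same pattern. Nearest to Ccl2 were Nr1h3, which encodes the liver X receptor alpha, at 0.0336, the inhibitory lectin receptor gene Clec12a at 0.0493, and the costimulatory receptor gene Cd40 at 0.052. Nearest to Ccl3 were the cytokine gene Il1b at 0.0511, the receptor kinase gene Adrbk2 at 0.0653, and Pnp2 at 0.0716, a purine nucleoside phosphorylase gene that closely resembles Pnp. Nearest to Ccl22 were Zhx2 at 0.102, Enox2 at 0.103 and Pid1 at 0.104. Such patterns were common: 329 genes lay within 0.25 of Ccl2, 118 of Ccl3 and 94 of Ccl22.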

How the data were processed

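Groups were read from the sample titles. In the source field of the DA libraries the last digit of the ligand's name varies, and the titles were followed. The deposited files hold the authors' expected counts (estimated reads per gene, not normalized) and FPKM, scaled by the authors for transcript length and library size, per the file headers. Bowtie2 2.2.5 and GRCm38.p5 are named in the submitters' processing notes. The quantifier is not given in the sources used here. No FPKM below 0.01 is listed, and genes missing from a library's file were taken as 0.

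Expected counts were rounded. edgeR 4.0.16 (R 4.3.3) removed 5561 genes with filterByExpr, normalized the other 12390 with TMM (mean factors 1.032 with DA and 0.969 without), and tested 3 Pam3CSK4 plus DA against 3 Pam3CSK4 libraries by quasi-likelihood with no replicate block, Benjamini-Hochberg adjusted over all genes tested, at 0.05. The procedure was tested on simulated counts with independent libraries and far fewer changed genes than were called here. That test does not check the normalization or the error rate for these data. The standard error is the log2 fold change divided by the square root of F. CPM is per 1e+06 TMM-scaled counts. Promoter windows and patterns came from RefSeq tables and gene positions from a GENCODE annotation of GRCm38.

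The members and lists were chosen with earlier results of these data known. All 10 members, every tested gene of the chemokine and receptor lists, cluster neighbours, and the 3 most alike genes of the most abundant member of each of the 3 sets of members are named. 1 item is not reported here. Alternatives were other size factors, DESeq2 1.42.0, limma 3.58.1 on log2(FPKM + 1) or log2(FPKM + 0.1), other filters, a replicate block and each library left out. A fit that ignored the 50 most abundant genes in the normalization was chosen after seeing the data. A planned comparison of protein sequences was not run. Count totals were nearly equal, so depth limits mainly genes of few counts, such as Ccl17.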

Additional observations from a re-analysis of the deposited data

How the results depend on the processing

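All 9 tested CC chemokine genes kept their direction and their call in all 16 alternatives, with log2 fold changes from -2.62 to -2.31 for Ccl12, -2.37 to -1.73 for Ccl22 and -0.97 to -0.80 for Ccl6. The count of CC chemokine genes lower with DA was 9 or 10, the 10th being Ccl17, which was tested and not called in limma on unfiltered log2(FPKM + 1) (-0.78, adjusted p = 0.051). Across all genes, 3938 were lower and 4043 higher, against 3138 lower and 5055 higher with upper-quartile factors, under which the median of all genes was 0.14 on the log2 scale, and 2858 lower and 4229 higher in limma on log2(FPKM + 1). With the replicate block, 4111 genes were lower and 4223 higher, and all 9 calls stood. Replicate numbers were not treated as pairs, because the labels do not say that they are. Deviations of same-numbered libraries correlated at 0.445, 0.0863 and 0.122. DA replicates 1 and 3 correlated best with their own number, and DA replicate 2 with Pam3CSK4 replicate 3 (0.265). These correlations do not settle whether the libraries are paired. The other genes followed through the alternatives were 36 tested genes of the chemokine and receptor lists, cluster neighbours and most alike genes. Cell type markers outside these were not followed. Of their 559 values, 534 kept direction and call, 18 lost the call, 4 gained it and 3 changed sign. Cxcl11 changed sign at -0.19 without DA replicate 1 (range -0.19 to 0.69 with 1 library left out). Cxcl14 did so at -0.086 without DA replicate 2 and -0.02 without Pam3CSK4 replicate 1 (range -0.086 to 0.23). Neither was called. With TMM-scaled counts per kilobase, Ccl9 took position 2 and Ccl4 position 3 in the Pam3CSK4 order. Shares by expected counts, which grow with transcript length, were 1.06% with DA and 1.03% without it for Ccl2 (overlapping), 21.8% with DA and 31.4% without it for Ccl3, 7.95% and 10.8% for Ccl4, 2.38% and 2.31% for Ccl5 (overlapping), 6.996% and 4.12% for Ccl6, and 59.2% and 49.6% for Ccl9.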
